A study of Mus musculus with 8 samples.

Results

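The livers of mice that received the higher of 2 doses of extracellular vesicles (EVs), isolated from bovine colostrum, were compared with those of mice that received the lower dose, gene by gene, by 1 RNA-seq library for each dose. Genes were taken when they reached 5 FPKM (fragments per kilobase of transcript, scaled to the library's mapped fragments) in at least 1 of the 2 libraries, which held for 6873 of the 45777 genes in the deposited table. For each gene the log2 ratio of (FPKM + 1) in the high-dose library to (FPKM + 1) in the low-dose library was taken. A positive ratio means more in the high-dose library, and ratios of genes near 1 FPKM are understated by the added 1.

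EVs are membrane-bound particles that cells release, here from the first milk of cows, and non-alcoholic steatohepatitis (NASH) is fatty liver with inflammation and cell injury. The liver libraries came from a control group, a NASH group, and groups labelled EVs low dose and EVs high dose; the series text places the study in a NASH mouse model. Amount, route and length of dosing, diet, strain, age, the number of animals behind a library, and any pooling are not stated in the labels. The question the 2 EV libraries can address is where dose goes with a different liver transcriptome. With 1 library per group there is no replicate error, no test and no probability, and a difference between doses and a difference between animals cannot be told apart. In bulk tissue, fewer cells of a type and less RNA per cell cannot be told apart either. The control and NASH libraries are given beside the 2 EV libraries as reference levels, and 4 FPKM values in a row are in the order control, NASH, low dose, high dose.

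Both EV libraries carried the transcripts of male liver. Albumin (Alb) stood at 15745 FPKM in the low-dose and 15525 in the high-dose library, and the other hepatocyte markers Ttr, Apoa1 and Cyp2e1 were at 1882 FPKM or more in both. Xist, the RNA of the inactive X chromosome of females, was at 0 and 0.00206 FPKM, while the Y-linked Ddx3y was at 20.03 and 21.7. At the selection threshold, the last genes taken were Arhgap9 (4.80 and 5.0002 FPKM), Klra2 (4.92 and 5.0006) and Htra2 (4.71 and 5.001), and the first left out were Paxbp1 (4.70 and 4.9989), Lmo2 (3.97 and 4.998) and Psme3ip1 (4.997 and 4.78). The total read number is not known. In pseudogenes, FPKM times length moved in steps of 17.4 in the low-dose and 18.4 in the high-dose library, so the value of a single step was 1.06 times as large in the high-dose library.

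Mouse liver is one of the most sexually dimorphic tissues. In males, growth hormone reaches the liver in pulses, acts through its receptor (Ghr) and the transcription factor STAT5B, and keeps a male set of genes high: the major urinary proteins (Mup genes, small pheromone carriers excreted in urine), steroid and drug P450 enzymes, and carriers such as Slco1a1. BCL6 is a repressor that competes with STAT5 at many of its sites, and SOCS2 is a feedback inhibitor of the growth hormone receptor. Hepcidin, made by hepatocytes from Hamp, is the hormone that blocks iron export from cells. Mice also carry a copy of the gene, Hamp2, whose role in iron control is not addressed here.

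The bases just before the start sites are shown for Slco1a1 and Hamp2, the highest and the lowest ratio, for Bcl6, and for related pairs, Hamp beside Hamp2 and Mup3 beside Mup7, so that copies can be compared. They are the 150 bases upstream of the RefSeq start, from the GRCm38.p6 promoter table, 5′ to 3′ on the gene's own strand. Capitals mark matches, on either strand, to TTCNNNGAA (the core letters bound by STAT5 and BCL6), GGCGCC (the letters of the BMP response element) or TATAAA. Slco1a1 lies at chr6:141946963-141947112, Mup7 at chr4:60070476-60070625, Mup3 at chr4:62087318-62087467, Bcl6 at chr16:23988853-23989002, Hamp at chr7:30944030-30944179 and Hamp2 at chr7:30924182-30924331, each on the minus strand.
Slco1a1: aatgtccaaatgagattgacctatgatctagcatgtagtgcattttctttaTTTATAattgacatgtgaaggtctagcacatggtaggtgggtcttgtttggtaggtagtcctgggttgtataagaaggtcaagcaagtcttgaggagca
Mup7: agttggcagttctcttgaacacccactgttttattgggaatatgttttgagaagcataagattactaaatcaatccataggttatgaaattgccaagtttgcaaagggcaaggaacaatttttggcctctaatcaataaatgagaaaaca
Mup3: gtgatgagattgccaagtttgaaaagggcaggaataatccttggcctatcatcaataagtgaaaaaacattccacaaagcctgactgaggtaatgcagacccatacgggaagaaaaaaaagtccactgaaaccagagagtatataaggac
Bcl6: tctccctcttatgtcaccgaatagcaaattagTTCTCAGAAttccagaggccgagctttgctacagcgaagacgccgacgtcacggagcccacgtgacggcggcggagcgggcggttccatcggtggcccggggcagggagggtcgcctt
Hamp: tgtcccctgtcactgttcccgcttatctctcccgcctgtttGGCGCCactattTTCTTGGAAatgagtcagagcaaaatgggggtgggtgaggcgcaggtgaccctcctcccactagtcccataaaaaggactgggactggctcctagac
Hamp2: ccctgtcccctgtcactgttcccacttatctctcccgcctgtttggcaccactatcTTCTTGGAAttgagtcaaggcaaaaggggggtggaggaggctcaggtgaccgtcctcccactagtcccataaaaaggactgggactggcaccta
The 250 upstream bases of Mup3 and Mup7 aligned over 169 pairs, of which 143 (84.6%) were identical. Their listed starts are offset, so the end of the Mup7 stretch lines up with the middle of the Mup3 stretch. Hamp and Hamp2 aligned over 247 pairs, of which 227 (91.9%) were identical. TTCNNNGAA was found at 97 bases before the start of Hamp, at 94 before that of Hamp2 and at 118 before that of Bcl6, which has 2 starts listed. GGCGCC was found at 109 bases before the start of Hamp and not in the 250 bases of Hamp2. Slco1a1 held TATAAA as its reverse complement at 209 and 99 bases before the start. Of 32851 RefSeq promoters of 250 bases, 7.02% held TTCNNNGAA, 9.59% GGCGCC and 12.4% TATAAA. Among the 14 of 22 Mup genes with a promoter in the table, 0 held TTCNNNGAA and 2 held TATAAA. A match is a string of letters and shows no binding.

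The 2 livers were close. The median log2 ratio was 0.01, the quartiles were -0.08 and 0.11, and 98.3% of the 6873 genes were within 1.5-fold. A total of 25 genes (0.364%) were 2-fold or more higher in the high-dose library and 11 (0.16%) were 2-fold or more lower. At 1.5-fold the counts were 63 higher (0.917%) and 55 lower (0.8%), and 53.7% of all genes had a ratio above 0. By the same rule 140 of 8928 colon genes (1.57%) were 2-fold apart between the doses. The high side in liver was mostly a single gene cluster: 16 of the 25 were Mup genes and 2 more were Mup pseudogenes. The other 7 were Slco1a1, Cyp4a12a, Psma3, H2aw and the pseudogenes Gm13736, Gm6969 and Cox5b-ps. On the low side, the protein-coding genes with an established name were Hamp2, Cyp2c39, Bcl6 and Pmm1, and the other 7 were tRNA, snoRNA, predicted or pseudogene entries. Of these 36 genes (0.524%), 15 were under 5 FPKM in their lower library. Genes at 100 FPKM or more in their higher library were 2-fold apart in 1.94% of cases (12 of 617). Between 5 and 10 FPKM the share was 0.275% of 2546 genes. Of those 12, 11 were higher with the high dose, all of them Mup genes but Psma3, and the other was Hamp2. The larger share among abundant genes is thus mostly the Mup cluster counted again. The median ratio was -0.005 between 5 and 10 FPKM and 0.069 at 100 FPKM or more.

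**Figure D1:**
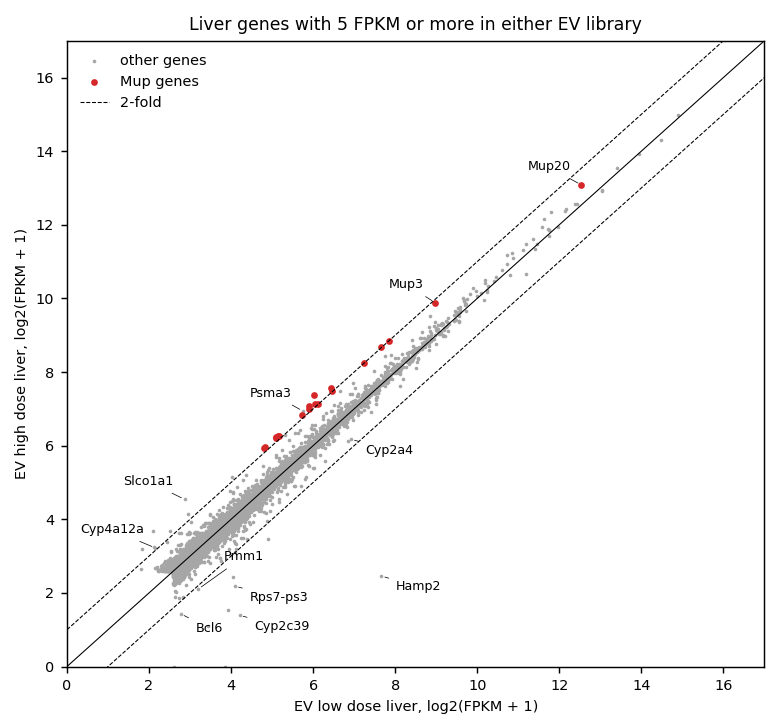
Expression of 6873 genes in the low-dose liver library (x axis) and the high-dose liver library (y axis), both as log2(FPKM + 1), with 1 point per gene, Mup genes in red and dashed lines at 2-fold. Nearly all points lie inside the dashed lines, the Mup genes run along the upper one, and Hamp2 stands far under the lower one.

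The Mup genes on chromosome 4 (between positions 60066469 and 62150841) were higher in the high-dose library as a group. Of 22 Mup genes in the table, 19 reached 5 FPKM, and these 19 had ratios from 0.55 to 1.34 with a median of 1.09, against 0.01 over all genes. Mup14 stood at 2311, 22.3, 64.4 and 164 FPKM, a log2 ratio of 1.34 between the doses. Mup7 stood at 6924, 20.4, 51.7 and 113 FPKM (1.12), and Mup3, the most abundant of them in control liver, at 13629, 223, 500.0 and 947 (0.92). In each of these genes the control library was far above the others, the NASH library was the lowest, and the high-dose library lay above the low-dose one.

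Mup20, also called darcin, a male pheromone in urine, was the member that differed least. It stood at 5256, 3415, 5930.4 and 8689.6 FPKM, a ratio of 0.55, and both EV libraries were above the control library. It made up 8.69% of all Mup FPKM in the control, 82.4% in the NASH, 76.6% in the low-dose and 70.0% in the high-dose library. Summed over the family, Mup FPKM were 60499, 4143, 7743 and 12413, so the high-dose sum was 1.60 times the low-dose sum. Without Mup20 the sums were 55242, 728, 1812 and 3724. As a share of all protein-coding FPKM the family took 13.8%, 1.11%, 2.05% and 3.11%. Mup genes are near-identical copies, so the split of reads between single members is uncertain, while the family sum is less exposed to it.

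**Figure D2:**
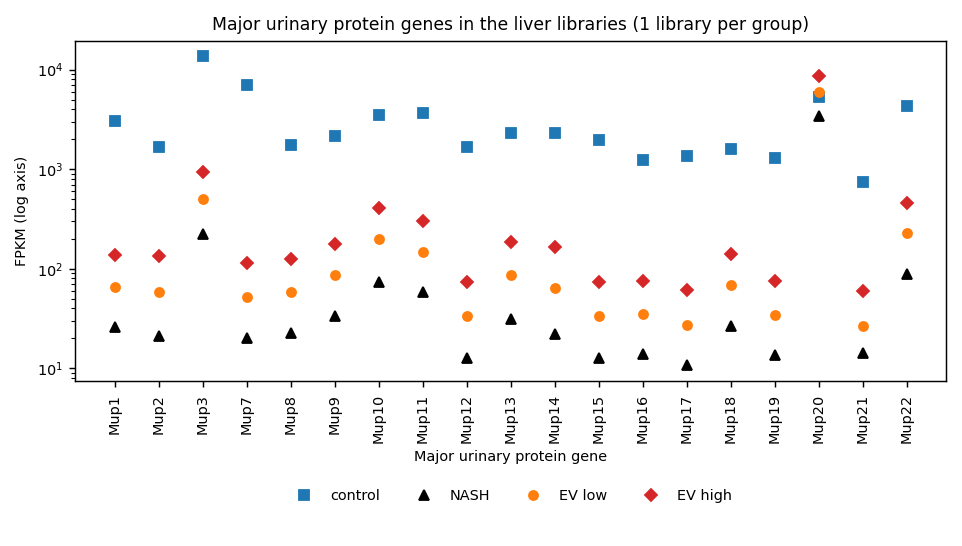
FPKM (log axis) of the 19 Mup genes that reached 5 FPKM in either EV liver library, with 1 symbol per liver library and gene. For 18 genes the order from low to high is NASH, low dose, high dose, control; for Mup20 both EV libraries lie above control.

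Other genes that are higher in male than female mouse liver also stood higher with the high dose. Of 30 male-biased genes in the list, 22 reached 5 FPKM, 15 of these were 1.5-fold or more higher in the high-dose library, 0 were 1.5-fold lower, and the list's median ratio was 0.97. Mup genes were 11 of the 22 kept members (median 1.12). The other 11 had a median of 0.52, 10 had a ratio above 0, and 5 passed 1.5-fold. Over all genes 53.7% had a ratio above 0 and 0.917% were 1.5-fold higher. The list's one kept member below 0 was Gstp1, a glutathione transferase, at 2048, 643, 581 and 567 FPKM (-0.04).

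Slco1a1, a sinusoidal carrier of organic anions and steroid conjugates on chromosome 6 (141907281 to 141946962), had the highest ratio of all 6873 genes. It stood at 158, 1.86, 6.29 and 22.3 FPKM, a log2 ratio of 1.68. Cyp4a12a, an androgen-dependent omega-hydroxylase, stood at 46.8, 2.87, 3.43 and 8.35 FPKM (1.08) and was taken through the high-dose library alone. In both genes the high-dose library was the one nearest control, and it remained far under it. Cyp7b1, the oxysterol 7-alpha-hydroxylase of the alternative bile acid pathway, stood at 114, 13.1, 14.8 and 26.2 FPKM (0.78). C6, a component of the complement membrane attack complex, stood at 59.9, 33.7, 33.2 and 52.8 FPKM (0.65), and Nudt7, a peroxisomal coenzyme A hydrolase, at 369, 50.3, 77.98 and 118 (0.59). C6 in the high-dose library was close to the control level, with the NASH and low-dose libraries together under it. Some strongly male-biased genes stayed under 5 FPKM in both EV livers: Hsd3b5, a steroid dehydrogenase, stood at 182, 0.1602, 0.124 and 0.816 FPKM and Elovl3, a fatty acid elongase, at 188, 1.44, 2.14 and 3.69.

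Among female-biased genes the direction was mixed. Of 24 genes, 11 reached 5 FPKM, with a median ratio of -0.09. Among these, 3 were 1.5-fold or more lower in the high-dose library, and 0 were 1.5-fold higher. The shares over all genes were 0.8% lower and 0.917% higher. Cyp2a4, a testosterone 15-alpha-hydroxylase, stood at 2.28, 104, 121 and 71.2 FPKM, a ratio of -0.75. Cyp2b9, a P450 of female liver, stood at 0.839, 14.1, 15.8 and 9.61 FPKM (-0.66). Both were low in control, and in each the low-dose library was the highest of the 4 liver libraries. Acot3, an acyl-CoA thioesterase, went the other way, at 0.747, 7.99, 12.9 and 19.3 FPKM (0.54).

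Genes of growth hormone signalling lay on both sides of 0. Of 17 in the list, 13 reached 5 FPKM, with a median ratio of 0.11, 1 member 1.5-fold higher and 1 lower. Ghr, the growth hormone receptor, stood at 115, 44.6, 54.7 and 75.1 FPKM (0.45), and Igf1, the secreted growth factor it induces, at 42.5, 30.7, 37.1 and 45.8 (0.30). Igfals, which holds circulating IGF in its ternary complex, had a ratio of 0.40, and Serpina3k, a secreted serpin of male liver, 0.47. Socs2, the feedback inhibitor, stood at 5.65, 8.597, 6.84 and 11.5 FPKM (0.67) and was highest in the high-dose library. Stat5b itself had a ratio of -0.04. Igfbp3, an IGF carrier protein, was lower with the high dose, at 5.498, 10.7, 13.3 and 9.203 FPKM (-0.48).

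Bcl6, at chr16:23965050-23988866, stood at 6.12, 2.14, 5.85 and 1.696 FPKM, a ratio of -1.35, and was taken through the low-dose library alone. Its libraries formed an upper pair (control and low dose) and a lower pair (NASH and high dose). At these levels the ratio depends on the added constant: it was -1.73 with 0.1 FPKM and -0.70 with 5 FPKM added.

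Drug- and steroid-metabolising P450 enzymes leaned higher in the high-dose library. Of 29 listed, 25 reached 5 FPKM, 22 had a ratio above 0, and the median was 0.23. At 1.5-fold, 3 were higher and 1 was lower. The share above 0 was 88%, against 53.7% of all genes. Over all genes 0.917% were 1.5-fold higher and 0.8% lower. Cyp2c54, an arachidonic acid epoxygenase that was nearly lost in NASH, stood at 142, 2.38, 7.16 and 14.2 FPKM (0.89). Cyp2c37, a related enzyme, stood at 87.7, 20.6, 26.4 and 42.6 FPKM (0.67), and Cyp2c23 at 87.7, 39.3, 32.9 and 50.2 (0.59). Cyp2c50 had a ratio of 0.57 and Cyp2c29 of 0.45. In Cyp2c54 and Cyp2c29 the control library lay far above both EV libraries.

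Cyp2c39 lay on the other side of 0 from most of its family. The retinoic acid hydroxylase gene (chromosome 19, 39347346 to 39569568) stood at 0.218, 2.01, 17.5 and 1.62 FPKM, a ratio of -2.82, so the low-dose library was alone in holding it above 5 FPKM. Cyp2c38 stood at 4.596, 21.7, 19.4 and 14.1 FPKM (-0.43). Of 15 Cyp2c genes 11 reached 5 FPKM, with a median of 0.31, and 9 of the 11 were above 0. These genes are paralogs, so single-member values are uncertain.

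Conjugating enzymes leaned slightly higher, with 29 of 32 genes at 5 FPKM and a median of 0.09. Of the 29, 23 (79.3%) had a ratio above 0, against 53.7% of all genes. At 1.5-fold, 1 was higher and 1 was lower. Sult2a8, a bile acid sulfotransferase, stood at 373, 14.6, 39.04 and 77.8 FPKM (0.98), with the NASH library the lowest and the high-dose library above the low-dose one. Ugt1a9, a glucuronosyltransferase, stood at 16.95, 9.76, 28.6 and 14.5 FPKM (-0.94), and the low-dose library was the highest of the 4. The other measured members of that locus, which share their last exons, had ratios of 0.11 (Ugt1a1), 0.22 (Ugt1a6a) and 0.16 (Ugt1a6b). Carboxylesterases, which cleave ester drugs and lipids, had 12 of 19 genes at 5 FPKM and a median of 0.34. Ces3b stood at 304, 30.5, 46.1 and 80.5 FPKM (0.79), Ces3a at 1345, 322, 458 and 733 (0.68) and Ces1f at 243, 30.2, 48.6 and 80.4 (0.71). Ces1b stood at 42.2, 19.5, 33.99 and 25.96 FPKM (-0.38), against the direction of those 3.

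By zone of the liver lobule, pericentral genes leaned higher and periportal genes lay near the middle. Of 22 pericentral genes 16 reached 5 FPKM, 15 had a ratio above 0, and the median was 0.28. Beside these, 53.7% of all genes had a ratio above 0 and 0.917% were 1.5-fold higher. Of the 16 pericentral genes, 1 was taken through the high-dose library alone. The 3 that were 1.5-fold higher were Oat, Slc1a2 and Cyp2c37. Cyp2c37 is also counted among the P450 enzymes, and Oat among the urea cycle and amino acid genes. Oat, ornithine aminotransferase, stood at 176, 103, 99.05 and 179 FPKM (0.84), and Slc1a2, a glutamate carrier, at 17.7, 19.4, 15.5 and 25.5 (0.68). In both, the high-dose library matched or exceeded control. Glul (glutamine synthetase), the innermost pericentral marker, had a ratio of 0.30, Cyp2e1 0.29 and Cyp1a2 0.03. Of 24 periportal genes 23 reached 5 FPKM, with a median of 0.02, and 0 passed 1.5-fold either way.

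Bile acid genes held both directions. Of 22 at 5 FPKM, 2 were 1.5-fold higher and 1 was lower, with a median of 0.09. Cyp8b1, the 12-alpha-hydroxylase that sets the share of cholic acid, stood at 141, 22.2, 19.6 and 35.8 FPKM (0.84). Cyp7a1, the rate-limiting enzyme of the classical pathway, stood at 9.52, 57.8, 70.7 and 88.9 FPKM (0.33) and was lowest in control. Nr0b2, which encodes SHP, a repressor of both enzymes, stood at 31.2, 11.5, 17.8 and 10.2 FPKM (-0.75). Nr0b2 was lower, and both enzymes higher, in the high-dose than in the low-dose library. Control held the highest level of both Nr0b2 and Cyp8b1, and a link between these genes was not tested.

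**Figure D3:**
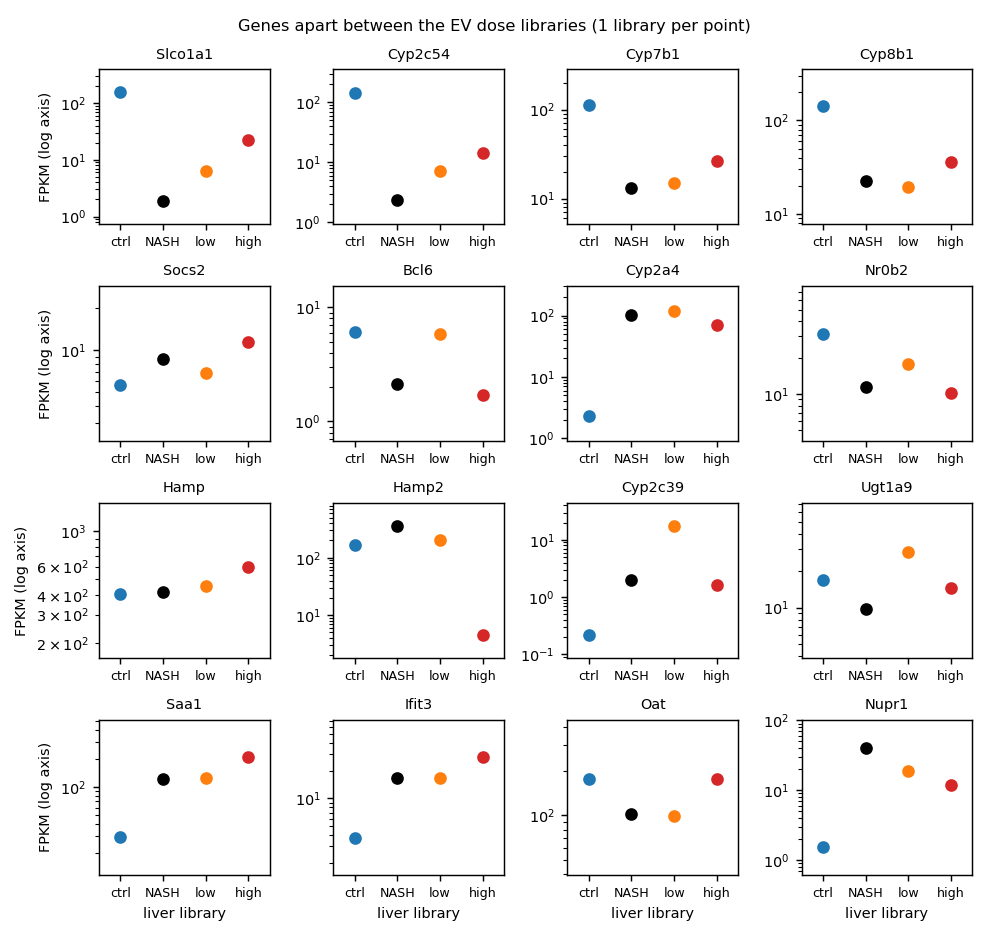
FPKM (log axis, scaled per panel) of 16 genes in the 4 liver libraries, with 1 point per library. Slco1a1, Cyp2c54, Cyp7b1 and Cyp8b1 lie far under control in both EV livers with the high dose above the low dose, Hamp2 is low in the high-dose library alone, and Cyp2c39 is high in the low-dose library alone.

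The widest gap of all 6873 genes was in Hamp2 (chr7:30922372-30924181). It stood at 169, 359, 202 and 4.498 FPKM, a log2 ratio of -5.20, and the high-dose library alone was under 5 FPKM, with the lowest of the other 3 at 169. Its neighbour Hamp stood at 403, 418, 451 and 600.4 FPKM (0.41) and was highest in the high-dose library. The 2 together summed to 572, 777, 652 and 605 FPKM, so the sum in the high-dose library was 0.927 times that in the low-dose library. Hamp and Hamp2 are paralogs, their transcripts were not compared here, and the split of reads between them was not tested. A difference in Hamp2 alleles between animals and a difference in its expression cannot be told apart in this table. The rest of the iron list lay near the middle: 17 of 23 genes reached 5 FPKM, with a median of -0.09, and Hamp2 was the only member past 1.5-fold. Tfrc, the transferrin receptor, stood at 2.49, 8.01, 10.2 and 8.82 FPKM (-0.19).

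Acute phase proteins, which hepatocytes secrete in inflammation, leaned higher with the high dose. Of 26 genes at 5 FPKM, 19 had a ratio above 0, the median was 0.16, and 3 serum amyloid A genes passed 1.5-fold. The share above 0 was 73.1%, against 53.7% of all genes, of which 0.917% were 1.5-fold higher. Saa1 stood at 29.2, 120.3, 125 and 206 FPKM (0.72), Saa2 at 10.5, 51.5, 50.3 and 84.2 (0.73) and Saa3 at 5.99, 50.9, 41.3 and 69.6 (0.74). In each the NASH and low-dose libraries were close together and the high-dose library was the highest of the 4. Saa4, the constitutive member, stood at 38.3, 36.7, 36.2 and 42.8 (0.23). Lcn2, an iron-siderophore binding protein of injured liver, did not share the gap between doses, at 1.796, 633, 322 and 296 FPKM (-0.12). Hp (haptoglobin) had a ratio of 0.17 and Orm2 (orosomucoid) of 0.53. Among 39 complement and coagulation genes the median was 0.11, and beside C6 none passed 1.5-fold; C9 had a ratio of 0.49 and Mbl2, mannose-binding lectin, 0.55.

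Interferon response genes were a little higher in the high-dose library. Of 44 genes, 38 reached 5 FPKM, 33 of these had a ratio above 0, the median was 0.18, and 2 passed 1.5-fold. That is 86.8% above 0, beside 53.7% of all genes, of which 0.917% were 1.5-fold higher. Of the 38, 1 was taken through the high-dose library alone. Ifit3 stood at 3.71, 16.7, 16.6 and 28.3 FPKM (0.73) and Ifit1 at 1.96, 5.902, 6.98 and 11.3 (0.62), both RNA-binding restriction factors. Isg15, the ubiquitin-like modifier, had a ratio of 0.53 and its protease Usp18 of 0.44. Irf7, the transcription factor of the loop, stood at 7.31, 30.4, 27.4 and 26.4 FPKM (-0.05). Ifit3 and Ifit1 were thus highest in the high-dose library, while Irf7 was level.

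Stress and early response genes were on the lower side. Immediate early genes had 13 of 29 members at 5 FPKM, 12 with a ratio below 0, and a median of -0.21. Of these 13, 2 were taken through the low-dose library alone. Gadd45g, a growth arrest gene, stood at 16.9, 14.4, 12.3 and 6.699 FPKM (-0.79), the one member past 1.5-fold. Integrated stress response genes had 13 of 24 members at 5 FPKM, 12 below 0, and a median of -0.20. Nupr1, a stress-induced chromatin protein, stood at 1.56, 40.4, 18.6 and 11.8 FPKM (-0.61), and Fgf21, a hepatokine of fasting and stress, at 0.641, 32.1, 16.4 and 10.9 (-0.55). Both were highest in NASH, lower with the low dose and lower again with the high dose, and both stayed far above control. Psat1, of serine synthesis, had a ratio of -0.38 and was taken through the low-dose library alone. Heat shock and endoplasmic reticulum chaperones had 21 of 28 kept members below 0, a median of -0.12 and none past 1.5-fold. Hspa1b was at -0.40, taken through the low-dose library alone, and Hyou1 at -0.36. Shares above 0 were 7.69% for immediate early, 7.69% for integrated stress and 25% for chaperone genes, against 53.7% of all genes.

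Most lipid and sugar genes were within 1.5-fold between the doses, while the de novo lipogenesis and glucose lists leaned lower. De novo lipogenesis had 17 of 22 kept genes below 0, a median of -0.09 and none past 1.5-fold. Its share above 0 was 22.7%, against 53.7% of all genes. Fasn, fatty acid synthase, stood at 42.1, 19.7, 18.8 and 13.1 FPKM (-0.49), Srebf1, its transcription factor, at 39.8, 48.03, 43.1 and 31.8 (-0.42) and Pklr, liver pyruvate kinase, at 26.5, 22.7, 22.4 and 16.5 (-0.42). In Fasn and Pklr the 4 libraries ran from control, the highest, to the high dose, the lowest. Fatty acid oxidation genes had a median of 0.00 over 34, and Pdk4, which shuts off pyruvate oxidation, was the one past 1.5-fold, at 1.56, 11.3, 11.3 and 6.86 FPKM (-0.65). Glucose genes had 17 of 23 kept members below 0, a median of -0.10 and a share above 0 of 26.1%. Tkfc, the triose kinase of fructose breakdown, stood at 35.5, 61.4, 51.1 and 29.1 FPKM (-0.79), the one glucose gene of 23 past 1.5-fold. The lipid droplet proteins Plin4 and Cidec stood at 0.758, 14.5, 11.8 and 8.17 (-0.48) and 0.0793, 55.1, 42.8 and 31.7 FPKM (-0.42). Both were near 0 in control and were lower with the high dose than with the low dose. Apoa4, an apolipoprotein of fat-loaded liver, stood at 44.5, 3027, 2319 and 1631 FPKM (-0.51), and Angptl8, an inhibitor of lipoprotein lipase activity, at 77.9, 17.5, 18.9 and 12.9 (-0.52). Cholesterol synthesis genes had a median of 0.05 over 18 and none past 1.5-fold, with Msmo1, a sterol methyl oxidase, at 55.6, 10.9, 16.6 and 22.2 FPKM (0.40).

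Collagens and other matrix genes were slightly lower with the high dose. Of 40 listed, 17 reached 5 FPKM, 14 of these had a ratio below 0, the median was -0.16, and 0 passed 1.5-fold. The share above 0 was 17.6%, against 53.7% of all genes, and 1 member was taken through the low-dose library alone. Col1a1, the main fibrillar collagen, stood at 0.516, 14.6, 7.95 and 5.91 FPKM (-0.37), and Fn1, fibronectin, at 189, 222, 183 and 150.4 (-0.29). Col1a1 was lowest in control, highest in NASH and between them in both EV livers. Col18a1 stood at 102, 103, 79.9 and 64.6 FPKM (-0.30). Fn1 and Col18a1, unlike Col1a1, were thus abundant in control liver. Lum, lumican, went the other way at 0.35.

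The other gene sets had medians near 0, though cell cycle genes leaned lower, with 12 of 15 kept members below 0. The cell cycle share above 0 was 20%, against 53.7% of all genes, and 1 member was taken through the low-dose library alone. Medians were 0.02 over 58 cytosolic ribosomal proteins, 0.05 over 48 nuclear oxidative phosphorylation genes, 0.08 over 38 urea cycle and amino acid genes, -0.01 over 29 NRF2 antioxidant targets, 0.00 over 9 core clock genes and -0.10 over 15 cell cycle genes. In the antioxidant list Osgin1 was the one member past 1.5-fold, at 30.7, 34.9, 22.04 and 14.2 FPKM (-0.60). In the glucocorticoid list (16 kept, median -0.02) Fkbp5, a chaperone induced by glucocorticoids, stood at 2.83, 24.6, 20.6 and 14.1 (-0.52).

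**Figure D4:**
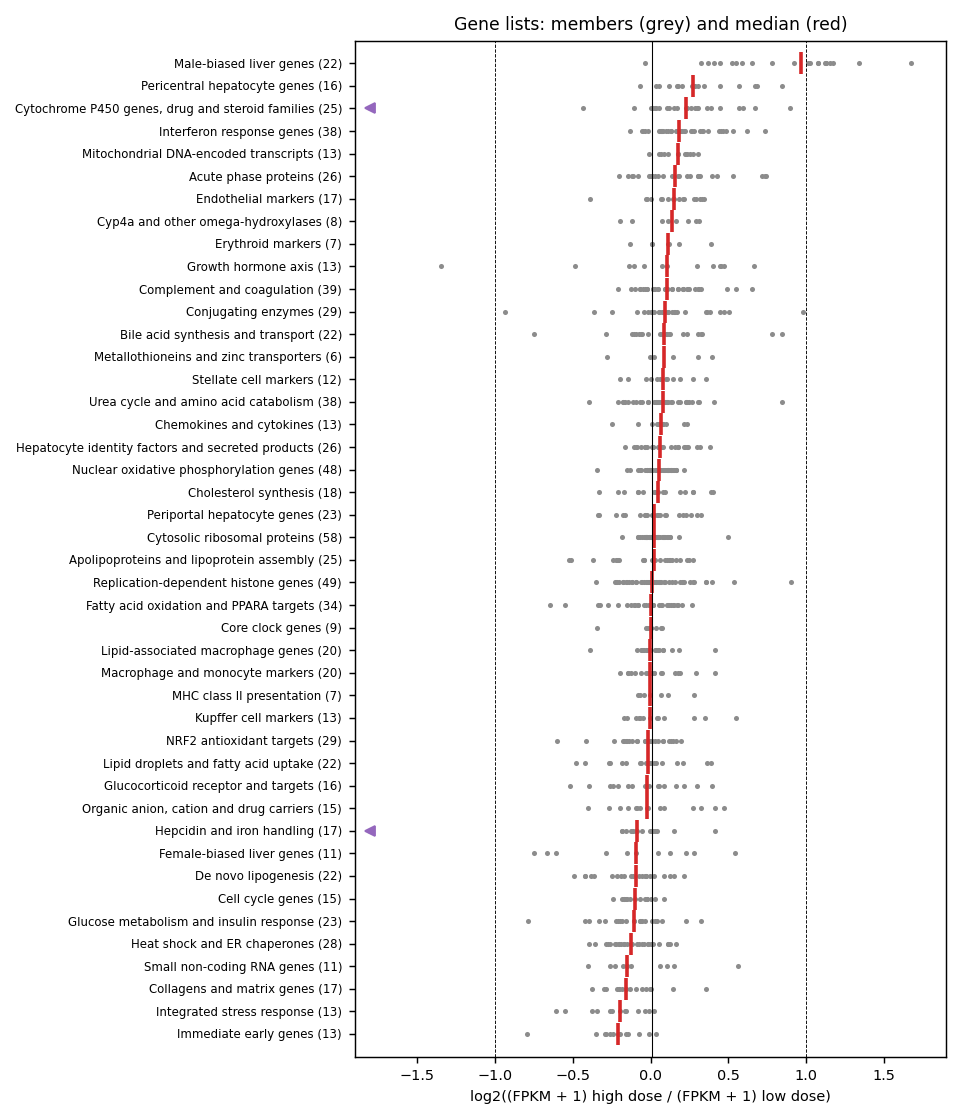
Log2 ratio of high to low dose (x axis) for the members of 44 gene lists with 5 or more members at 5 FPKM, grey points for genes, red bars for list medians, list sizes in brackets; arrows mark Cyp2c39 and Hamp2, which lie beyond the axis. The male-biased list has the highest median (0.97) and the immediate early list the lowest (-0.21), and the others have medians from -0.20 to 0.28.

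Summed markers of most other liver cell types differed little between the doses. Kupffer cell markers (13 of 13 at 5 FPKM, median -0.01) summed to 722 FPKM in the low-dose and 726 in the high-dose library. Macrophage and monocyte markers summed to 1182 and 1250, MHC class II genes to 502 and 518, and stellate markers to 385 and 413. Lyz2 made up 216 and 287 FPKM of the macrophage and monocyte sums, and 11 of 20 kept members were below 0 (median -0.003). Of 12 kept stellate members, 9 were above 0 (median 0.08), and the most abundant reached 199 FPKM. Cholangiocyte markers summed to 116 and 118. Of the 4 cholangiocyte members kept, 3 were below 0, and the other, Spp1, also a lipid-associated macrophage gene, stood at 40.4 and 46.0 FPKM. Endothelial markers summed to 278 and 311, with 14 of 17 kept members above 0 and a median of 0.15. Erythroid markers summed to 589 and 621, with 6 of 7 above 0 and a median of 0.11. By comparison, 53.7% of all genes were above 0. No kept member of these lists passed 1.5-fold. Marco, a scavenger receptor of Kupffer cells, had the widest of the Kupffer ratios, at 1.15, 10.3, 5.71 and 8.81 FPKM (0.55). Of 20 neutrophil markers 4 reached 5 FPKM (sums 460 and 435). Lcn2, also high in injured liver, made up 322 and 296 FPKM of these sums. S100a8 was at 6.89 and 8.65, S100a9 at 10.2 and 9.46, and Camp at 0 in both. T and NK markers (11.3 and 12.5 FPKM over 22 genes) and B and plasma cell markers (6.55 and 11.96 over 16 genes, the higher sum with the high dose) had 0 members at 5 FPKM. Adipoq of fat and Prss2 of pancreas were listed at 0 in both. Lipid-associated macrophage genes, a signature of fatty liver, had a median of 0.00 over 20, with Trem2 at 0.0991, 18.5, 16.3 and 17.3 FPKM (0.08), Gpnmb at 0.0243, 26.3, 21.6 and 21.6 (-0.00) and Mmp12 at 0.0526, 30.1, 34.9 and 46.9 (0.42). Trem2 and Gpnmb were near 0 in control and alike in the 3 other livers.

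Short and structural RNAs stood apart by class, and their FPKM come from a total-RNA library. Spliceosomal and other snRNA genes had 27 members at 5 FPKM, 26 with a ratio below 0 and a median of -0.56. Members of this class can be near-identical copies, and the split of reads between them was not tested. In the high-dose library 13 were 1.5-fold lower, against 0.8% of all genes. Rnu1a1 stood at 19.1, 19.8, 29.9 and 17.6 FPKM (-0.74) and Rnu2-10 at 28.7, 30.6, 45.6 and 29.2 (-0.62). Without the abundant Rn7sk, snRNA summed to 734, 1013, 1375 and 1024 FPKM, so the low-dose library was the high one. Rn7sk, the 7SK RNA that holds P-TEFb inactive, stood at 41633, 25226, 30296 and 32595 (0.11) and did not share that order. snoRNA genes had a median of -0.15 over 38. Snord14c stood at 3.11, 14.7, 15.4 and 4.398 FPKM (-1.61), Snord14d at 5.77, 20.3, 16.4 and 8.22 (-0.92) and Snord14e at 8.92, 15.9, 14.4 and 8.08 (-0.76), all 3 lower with the high dose. The 6 nuclear tRNA genes kept had a median of -0.69, and 2 of them, n-TYgta10 and n-TYgta3, were listed at 0 in the high-dose library, against 13.5 and 5.11 FPKM with the low dose.

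Mitochondrial RNA went the other way. The 12 mitochondrial tRNA genes kept had ratios from 0.04 to 0.85 with a median of 0.40. The 13 mitochondrial messages had a median of 0.18 with 12 above 0. The small mitochondrial ribosomal RNA, mt-Rnr1, stood at 777, 301, 214 and 346 FPKM (0.69) and the large one, mt-Rnr2, at 6527, 3363, 3175 and 4599 (0.53). Control was the highest library for both. No RNA quality values are in the labels, so any part of RNA quality in these short-RNA gaps was not tested.

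Several single genes outside these sets also stood apart. Psma3, a subunit of the 20S proteasome, stood at 107, 47.6, 52.8 and 122 FPKM (1.19); its control and high-dose libraries formed an upper pair. H2aw, a histone gene, stood at 4.23, 11.2, 4.67 and 11.8 FPKM (1.17), with NASH and high dose as the upper pair. Pmm1, a phosphomannomutase, stood at 0.957, 3.79, 8.200 and 3.303 FPKM (-1.10), and Trex1, a DNA exonuclease, at 2.16, 6.21, 6.08 and 2.701 (-0.94). H2aw was taken through the high-dose library alone, and Pmm1 and Trex1 through the low-dose library alone. Asgr2, a subunit of the asialoglycoprotein receptor of hepatocytes, stood at 102, 57.6, 115 and 69.5 FPKM (-0.72). Asgr2 paired like Bcl6, with control and low dose above NASH and high dose. Ppm1a, a protein phosphatase, stood at 15.9, 19.1, 28.1 and 16.9 FPKM (-0.70) and was highest in the low-dose library. Pttg1, securin, stood at 14.5, 14.2, 16.01 and 9.23 FPKM (-0.73), and its ratio between the colon libraries was -1.17. Neat1, the RNA scaffold of paraspeckles, stood at 38.5, 35.5, 34.98 and 22.4 FPKM (-0.62).

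Set beside the colon libraries of the same 2 dose groups, the liver's 2-fold genes split by kind. Of the 36, 12 also reached 5 FPKM in an EV colon library, and 6 of these 12 (50%) were 2-fold apart in colon in the same direction. Those 6 are 22.2% of the 27 genes that were 2-fold apart in colon and kept in liver. The background over the 5853 genes kept in both tissues was 0.205% in liver and 0.461% in colon. All 6 were pseudogenes or a snoRNA: Gm8210, Gm13841, Rps7-ps3, Gm13736, Gm6969 and Snord14c. None of the Mup genes, Slco1a1, Cyp4a12a, Hamp2, Cyp2c39 or Bcl6 reached 5 FPKM in an EV colon library, so colon gives no matching value for them. At 1.5-fold, 16 genes were apart in the same direction in both tissues and 2, S100a11 and H2bc6, in opposite directions, against a background of 0.974% in liver and 2.92% in colon.

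Gm8210, a pseudogene on chromosome 1 (43189052 to 43189773), stood at 9.31, 1.52, 9.85 and 1.13 FPKM in liver and at 18.5, 2.82, 26.6 and 2.38 in the colon libraries in the same group order. Gm13841 stood at 13.04, 2.42, 14.3 and 1.92 in liver and 27.5, 4.08, 39.8 and 4.51 in colon, and Rps7-ps3, a copy of the ribosomal protein gene Rps7, at 11.9, 2.65, 16.1 and 3.53 and 36.3, 6.25, 44.3 and 8.33. In both tissues the control and low-dose libraries were the high pair and the NASH and high-dose libraries the low pair. Rps7 itself had a liver ratio of 0.13. Reads of such copies can be shared with the parent gene, and the labels do not say how they were assigned. For these 3 pseudogenes, as for Hamp2 and Cyp2c39, a difference in alleles between animals and a difference in expression cannot be told apart.

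**Figure D5:**
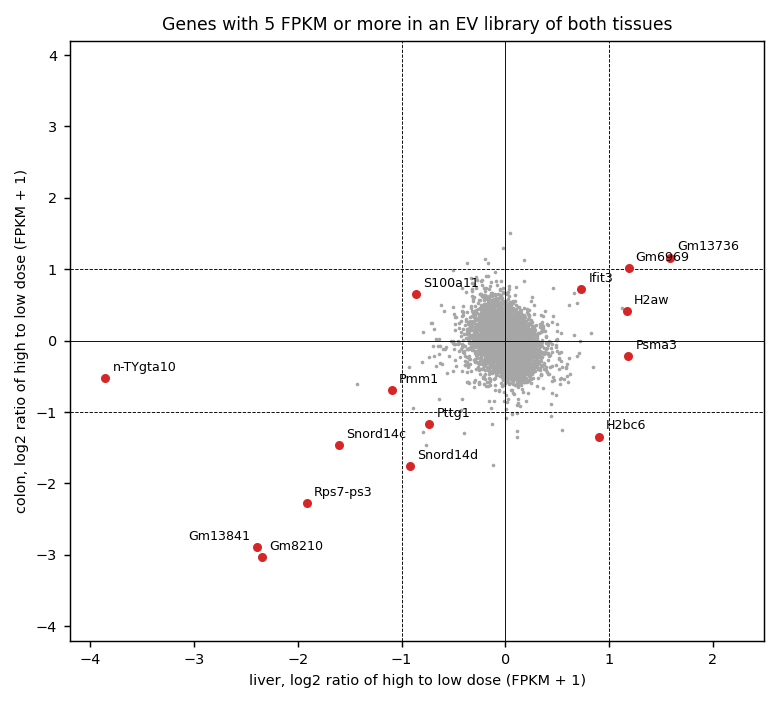
Log2 ratio of high to low dose in liver (x axis) against that in colon (y axis) for genes with 5 FPKM or more in an EV library of both tissues, with 1 point per gene and dashed lines at 2-fold. Gm8210, Gm13841 and Rps7-ps3 are low with the high dose in both tissues, while Psma3 is apart in liver alone at 2-fold.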

How the data were processed

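Total RNA of mouse liver and colon was sequenced in 8 libraries, 1 per tissue and group, and groups were taken from the sample titles. Per the labels' protocols, extraction used TRIzol followed by an RNeasy Plus kit, and a stranded total-RNA kit (TruSeq Gold) gave the libraries. Trimmomatic 0.38, HISAT2, StringTie and the mm10 build are listed in the submitters' processing notes; their roles and settings are not given there. The authors deposited 1 table of FPKM, per the file headers, for 45777 NCBI gene identifiers. The RefSeq table of GRCm38.p6 (mm10) gave symbols for 45679 and none for 98.

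From these values the ratio log2((FPKM + 1)/(FPKM + 1)), high over low dose, was computed for genes at 5 FPKM or more in either liver EV library, and genes were counted at 2-fold and 1.5-fold. No test was run, since each group holds 1 library. The code was tested on simulated data. The members and the 49 gene lists were chosen with earlier results of these data known. The genes named were the 14 highest and 14 lowest ratios (predicted genes, pseudogenes, small RNAs, receptor segments and mitochondrial genes left out), up to 3 members of each list with the largest ratios, members of the Mup, Cyp2c and Hamp families, and cell type markers. Pseudogenes, the snRNA, tRNA, snoRNA, Saa, Ces, Ugt1a and Ifit groups, and genes such as Cyp4a12a, Neat1, Ghr, Igf1, Igfals, Serpina3k, Irf7, Usp18, Hsd3b5, Elovl3, Nudt7, Cyp7a1, Cyp1a2, Glul, Trem2 and Gpnmb were named after their values were seen. The values of 1 member of the female-biased list are not reported here. Near-identical copies (Mup, Hamp and Hamp2, Cyp2c, Cyp4a12, Ces, Saa1 and Saa2, Ugt1a, histone genes, snRNA and tRNA genes, pseudogenes) cannot be separated with certainty. Alternatives were 2 other scalings, ratios relative to the median gene, 0.1 or 5 FPKM added, no minimum, a minimum of 1 or 10 FPKM, leaving out predicted and small RNA genes, and, chosen after seeing the data, leaving out the Mup genes. Computation ran in Python 3.11.15, with matplotlib 3.10.9, pandas 2.3.3 and numpy 2.4.6.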

Additional observations from a re-analysis of the deposited data

Results flagged for a closer look

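For 2 genes the liver and the colon lay on opposite sides by 1.5-fold or more; the difference between tissues was not tested, since each group holds 1 library. S100a11, a small calcium-binding protein, had a log2 ratio of high to low dose of -0.86 in liver (5.603 FPKM with the low dose and 2.64 with the high dose) and 0.65 in colon (4.95 and 8.31 FPKM). H2bc6, a replication-dependent histone gene, had a ratio of 0.90 in liver (5.63 and 11.4 FPKM) and -1.34 in colon (72.3 and 27.9 FPKM). With 5 FPKM added in place of 1, the liver ratio was -0.47 for S100a11, which is within 1.5-fold, and 0.62 for H2bc6. For comparison, 16 genes were 1.5-fold apart in the same direction in both tissues.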

How the results depend on the processing

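The counts depended on the minimum and on the added constant, and no named gene or list that was recomputed with a ratio past 1.5-fold changed direction. Single-gene values were recomputed for 185 named genes, not for the others past 1.5-fold such as Cyp4a12a, the pseudogenes and the tRNA genes, and not with the Mup genes left out. The main counts were 25 (2-fold higher with the high dose), 11 (2-fold lower), 63 (1.5-fold higher) and 55 (1.5-fold lower). With 5 FPKM added, 16 genes were 2-fold higher and 29 were 1.5-fold lower. With a minimum of 1 FPKM the 4 counts were 39, 21, 132 and 124, and with no minimum 39, 21, 159 and 151. With a minimum of 10 FPKM, 7 genes were 2-fold lower. Leaving out predicted genes, pseudogenes, small RNAs, receptor segments and mitochondrial genes left 4 genes 2-fold lower and 23 genes 1.5-fold lower. Leaving out the Mup genes, an alternative chosen after seeing the data, left 9 genes 2-fold higher, the 2 Mup pseudogenes among them. The share of 2-fold genes that were higher was 69.4% in the main setting and 83.3% with predicted and small RNA genes left out. It was 45% without the Mup genes but with the Mup pseudogenes kept. The median of the male-biased list was 0.97 in the main setting, 0.69 with no minimum and 0.52 without its Mup genes, and that of the growth hormone list was 0.11, or 0.40 with a minimum of 10 FPKM. Of 1626 single-gene values under the alternatives, 18 moved by over 0.2, all with another added constant. The other scalings moved the median gene to at most 0.04 on the log2 scale. No paired analysis was possible because each group holds 1 library, and for the same reason no library could be left out. The read depth is not known, so no counting interval is given.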
